A study of Mus musculus with 12 samples.

Results

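The genes described here build, bind, cross-link or break down the extracellular matrix of the lung. They are 45 gene symbols listed by name, and 42 of them were measured, among 19937 genes that had a probe set annotated with a single symbol. Each of the 42 had 1 such probe set. Loxl2 was found only on a probe set shared with another symbol, and no probe set matched Fbn1 or Spp1, so these 3 genes are not analysed here. By role the measured genes comprise 5 fibrillar collagens, 8 basement membrane collagens and laminin chains, 6 other collagens, 2 genes for elastic fibres and fibronectin, 4 matricellular proteins, 4 proteoglycans, 2 hyaluronan synthases, 2 lysyl oxidases, 6 proteases and 3 protease inhibitors.

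Fibrillar collagens give airway walls and vessels their tensile strength, and collagen type IV with laminins forms the sheet on which epithelium and endothelium rest. Matrix metalloproteases and ADAMTS proteases cut these proteins, and tissue inhibitors of metalloproteases (the TIMPs) block the enzymes. In asthma the term remodelling covers thickening of the layer under the airway epithelium and deposits of collagen, fibronectin and tenascin, and matricellular proteins signal to cells more than they bear load.

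RNA from whole lungs of 12 Balb/c mice was measured on Affymetrix Gene 1.0 ST arrays, with 3 mice in each of 4 groups and a separate array for each mouse. Control mice were given PBS through the nose. The 3 asthma models used house dust mite (HDM) extract of Der f and Der p, dosed in development units (DU). Eosinophilic mice had 3 intraperitoneal injections of 0.75 DU of each allergen on 1.5 mg of aluminium hydroxide in 200 µl, and were challenged through the nose in 50 µl on days 26 to 28. Mixed mice had 0.75 DU of each allergen by the nasal route alone, once weekly for 4 applications. Neutrophilic mice had 7.5 DU of each on that weekly schedule. Route, adjuvant and schedule thus differed together between eosinophilic and mixed mice, and the controls had no aluminium hydroxide, whereas mixed and neutrophilic mice differed by dose. Values are log2 intensities, and a difference of log2 values is a log2 fold change.

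The lung marker Sftpc, the surfactant protein C of alveolar type 2 cells, lay between 13.37 and 14.21 on the log2 scale in control, mixed and neutrophilic lungs. In the eosinophilic lungs it ranged from 7.38 to 14.31. The low value belonged to eosinophilic mouse 7, whose array stood apart from the others. Its values had an SD of 0.996 over all probe sets, against 1.51 to 2.04 on the other 11 arrays, and they correlated at r = 0.356 with the median of the others, against 0.863 to 0.980. Its highest value among the 42 matrix genes was 7.56, against 11.6 to 12.6 on the other arrays. Its lowest was 4.50 and its median 5.63. On so narrow a range, dim genes tend to read high and bright genes low. The side of the controls on which mouse 7 fell thus carries little weight in counts of HDM mice below. Comparisons were therefore fitted with all 12 arrays and again without that array. In comparisons of mixed or neutrophilic mice with controls, leaving it out alters the pooled spread and not the difference. The arrays of eosinophilic mouse 9 and of neutrophilic mouse 23 came next, with SDs of 1.52 and 1.51. In whole lung, fewer cells of a type and less RNA per cell cannot be told apart.

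Genes that passed the test came from several roles, and only 1 was a collagen. A gene is called where the adjusted p of limma (Benjamini-Hochberg over 19937 genes) was under 0.05. In comparisons with control, with or without mouse 7, 12 of the 42 genes were called, and the collagen among these 12 was Col12a1. The others were 4 proteases, 1 protease inhibitor, 3 matricellular proteins, 1 proteoglycan, 1 hyaluronan synthase and 1 laminin chain. The count of 12 pools the comparisons and both fits, and the share of all genes called in that pool was not computed. Shares for each comparison and fit follow.

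With all 12 arrays, Adamts4 and Timp1 were called higher in mixed lungs, where 0.326% of all genes were called higher and 0.145% lower. The same pair was called higher in neutrophilic lungs, where 0.662% of all genes were called higher and 1.45% lower. None of the 42 was called by limma in eosinophilic lungs, where 0.0752% of all genes were called higher and 0.421% lower. At an unadjusted limma p under 0.05, 16 of the 42 differed there, 6 higher and 10 lower. Without mouse 7, 11 were higher and 6 lower at that looser threshold. The share of all genes at an unadjusted p was not computed, so such counts, here and below, have no background beside them.

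Without eosinophilic mouse 7, more of the matrix genes passed in each model, and so did more of all genes. In eosinophilic lungs 3 were called higher (Tnc, Thbs1 and Timp1) and 1 lower (Lama3), beside 0.451% of all genes called higher and 0.883% lower. In mixed lungs 6 were called higher (Tnc, Thbs1, Has2, Mmp13, Adamts4 and Timp1) and 1 lower (Lama3), beside 1.41% of all genes called higher and 1.57% lower. In neutrophilic lungs 8 were called higher (the 6 of the mixed lungs with Mmp3 and Mmp14) and 4 lower (Lama3, Col12a1, Postn and Dcn), beside 2.24% of all genes called higher and 7.23% lower. The 3 comparisons share their control mice, so they are not independent of each other.

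Across all 42 genes, the median log2 difference from control was 0.12 in mixed lungs and 0.28 in neutrophilic lungs, where the medians of all genes were 0.00 and 0.05. In eosinophilic lungs it was −0.57 with all arrays and 0.09 without mouse 7, and the median of all genes was 0.01 in both. Counted by groups that do not overlap, 18 of the 42 lay above every control in mixed lungs and 7 below, where 9.16% and 13.9% of all genes did so. In neutrophilic lungs 13 lay above and 7 below, where 12.6% and 20.4% of all genes did so. In eosinophilic lungs 7 lay above and 11 below, where 11.1% and 15.9% of all genes did so. Without mouse 7 the counts were 17 above and 11 below, where 14.6% and 19.2% of all genes did so.

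**Figure D1:**
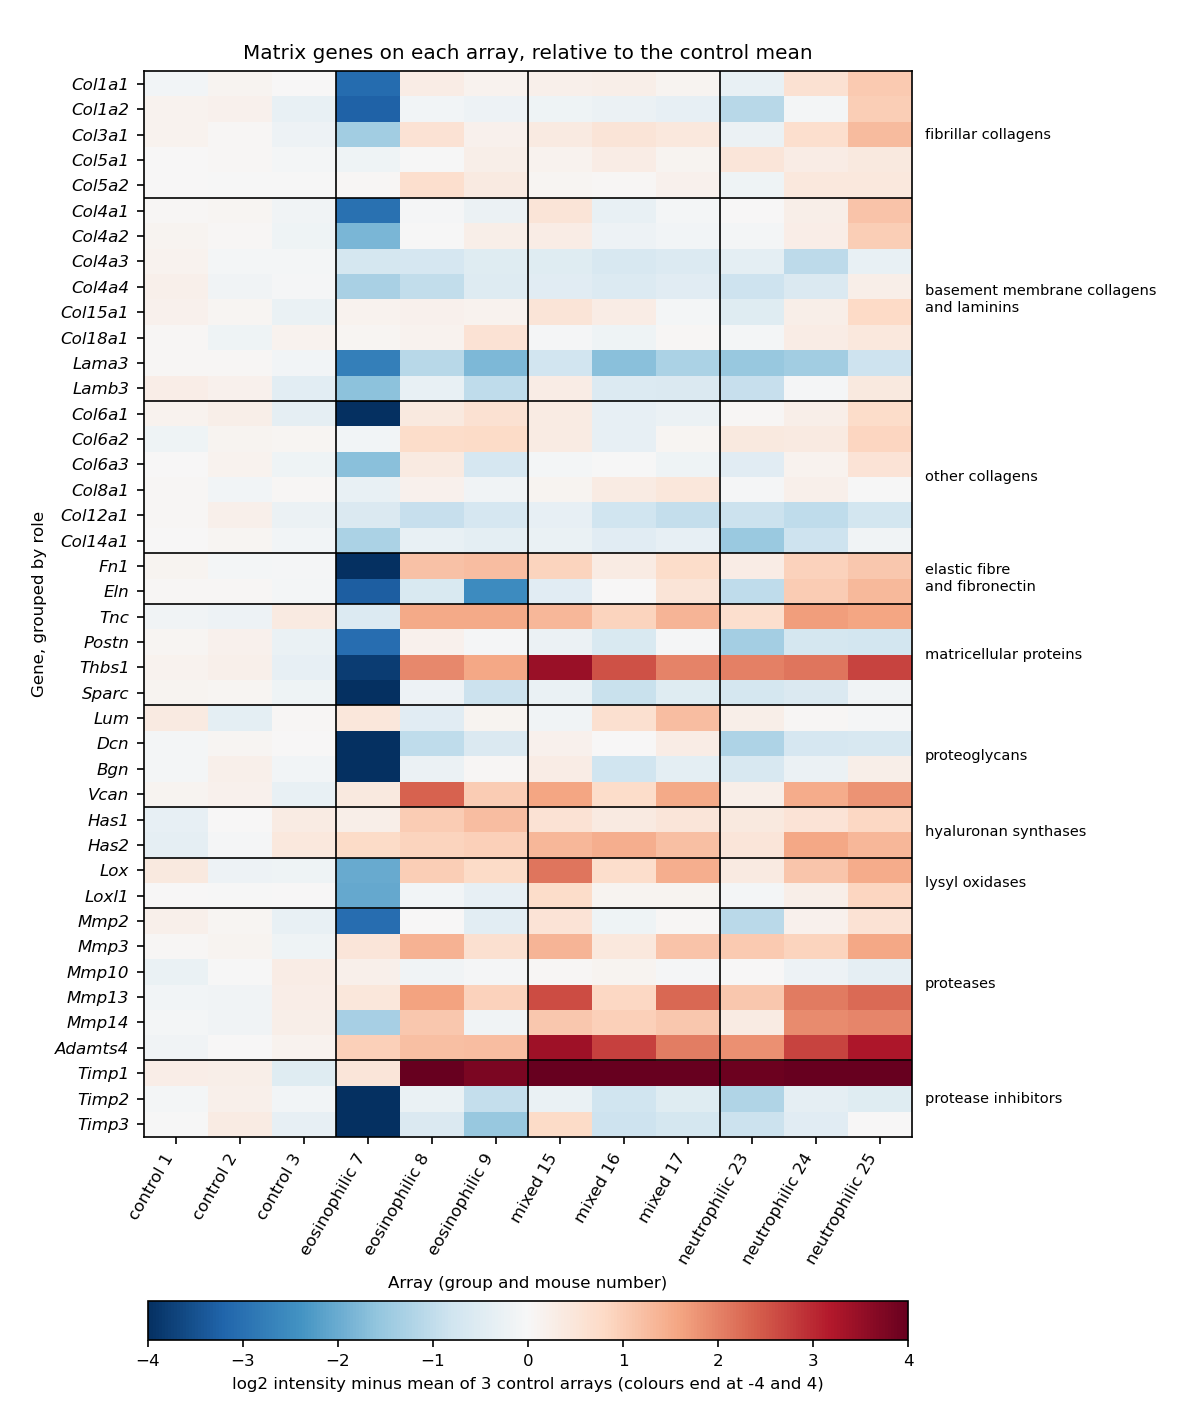
Each row is 1 of the 42 measured matrix genes, ordered by role, and each column is 1 mouse; colour gives log2 intensity minus the mean of the 3 control arrays, and colours end at −4 and 4. Timp1 was higher than every control on all 9 HDM arrays, and most genes with high control levels were low on the array of eosinophilic mouse 7.

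Timp1, the secreted inhibitor of many metalloproteases, had the largest difference of the 42 genes in all 3 models. It read 5.76, 5.74 and 5.04 on the control arrays. It read 5.99, 11.32 and 9.28 in eosinophilic mice 7, 8 and 9, then 10.78, 10.64 and 10.46 in mixed mice 15, 16 and 17, and 9.43, 10.49 and 10.29 in neutrophilic mice 23, 24 and 25. All 9 HDM values lay above all 3 controls, and that of mouse 7 did so by the smallest margin. The difference in mixed lungs was 5.11 ± 0.94 (SE, n = 3; 34.6-fold; limma adjusted p = 0.0352) and that in neutrophilic lungs 4.56 ± 0.94 (23.5-fold; adjusted p = 0.0292). In eosinophilic lungs it was 3.35 ± 0.94 with all arrays (adjusted p = 0.0938) and 4.78 ± 0.49 without mouse 7 (n = 2; 27.6-fold; adjusted p = 0.000263). With mouse 7 kept in, leaving out any 1 of controls 1, 2 and 3 or of mixed mice 15, 16 and 17 ended the call in mixed lungs, with adjusted p from 0.133 to 0.167 and log2 differences from 4.88 to 5.24. Leaving out control 1, 2 or 3 or neutrophilic mouse 24 or 25 ended it in neutrophilic lungs, with adjusted p up to 0.120 and log2 differences from 4.32 to 4.68.

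Its relatives Timp2 and Timp3 were not called in any comparison. Timp2, which also takes part in activating proMMP2, differed from control by −0.60 in eosinophilic lungs without mouse 7, by −0.52 in mixed lungs and by −0.68 in neutrophilic lungs. Its controls read 10.30, 10.59 and 10.29, and every HDM value lay below them, the highest at 10.14. Timp3, the inhibitor that is held in the matrix, read 10.82, 11.16 and 10.52 in controls, 11.60, 10.02 and 10.13 in mixed lungs and 9.98, 10.38 and 10.84 in neutrophilic lungs, and these groups overlapped with control. Eosinophilic mice 8 and 9 read 10.26 and 9.33, below the controls. The direct difference between Timp1 and its relatives was not tested.

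Adamts4, a protease that cuts aggrecan and versican, was the other gene called with all 12 arrays. Controls read 4.47, 4.66 and 4.76, eosinophilic lungs 5.59, 5.84 and 5.85, mixed lungs 8.03, 7.35 and 6.67, and neutrophilic lungs 6.46, 7.33 and 7.86. The groups were separate from control in every model, and every mixed and neutrophilic mouse also lay above every eosinophilic mouse. The difference was 2.72 ± 0.39 in mixed lungs (6.60-fold; limma adjusted p = 0.0133) and 2.59 ± 0.39 in neutrophilic lungs (6.01-fold; adjusted p = 0.00936). In eosinophilic lungs it was 1.13 ± 0.39 (adjusted p = 0.125), and without mouse 7 it was 1.22 (adjusted p = 0.176). The call in mixed lungs was lost on leaving out control 1, 2 or 3 or mixed mouse 15 or 16 (adjusted p from 0.0613 to 0.0924; log2 differences from 2.38 to 2.78). That in neutrophilic lungs was lost on leaving out control 1 or 2 or neutrophilic mouse 25 (adjusted p from 0.0557 to 0.0674; log2 differences from 2.27 to 2.60).

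Of the 5 matrix metalloproteases, Mmp3, Mmp13 and Mmp14 were called higher in 1 or more models without mouse 7, and Mmp2 and Mmp10 were not called in any comparison. Mmp13, the collagenase of rodents that cuts fibrillar collagen, read 4.66, 4.62 and 5.03 in controls, 7.40, 5.60 and 7.07 in mixed lungs and 5.84, 6.84 and 7.04 in neutrophilic lungs. In eosinophilic mice 7, 8 and 9 it read 5.24, 6.37 and 5.68. All HDM values lay above all controls. Mmp13 rose by 1.92 ± 0.43 in mixed lungs (3.77-fold; limma adjusted p = 0.0302 without mouse 7 and 0.127 with it). It rose by 1.80 ± 0.43 in neutrophilic lungs (3.49-fold; adjusted p = 0.0197 without mouse 7 and 0.0760 with it). In eosinophilic lungs the difference was 1.25 without mouse 7 (adjusted p = 0.228).

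Mmp3, or stromelysin 1, which degrades proteoglycans and laminin and activates other metalloproteases, read 4.93, 4.99 and 4.70 in controls. It read 5.36, 6.27 and 5.51 in eosinophilic, 6.22, 5.30 and 6.01 in mixed and 5.90, 5.77 and 6.41 in neutrophilic lungs. Again no HDM value fell within the controls. Mmp3 rose by 1.16 ± 0.31 in neutrophilic lungs (2.23-fold; limma adjusted p = 0.0304 without mouse 7 and 0.102 with it). In mixed lungs the difference was 0.97 (adjusted p = 0.126 without mouse 7), and in eosinophilic lungs it was 1.02 without mouse 7 (adjusted p = 0.168). Mmp10, or stromelysin 2, the relative of Mmp3, was dim on every array. Its values ran from 4.04 to 4.61 in controls and from 3.94 to 4.50 in the models. With all 12 arrays its differences from control were 0.01 (95% interval −0.54 to 0.55) in eosinophilic, 0.04 (−0.50 to 0.59) in mixed and −0.19 (−0.74 to 0.35) in neutrophilic lungs.

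Promoter sequences are shown for the 2 stromelysins, for the collagenase and for Timp1, because 3 of these genes were called higher while Mmp10 was not. They come from RefSeq on GRCm38.p6 and run from 250 bases before to 50 bases after the annotated start, on the plus strand. Capitals mark the letters TGANTCA, a form of the binding motif of AP-1 transcription factors, and TATAAA, the letters of a TATA box. Both motifs were searched on both strands, and in these 4 promoters the matches do not overlap each other.
Mmp13 (chr9:7272264-7272563): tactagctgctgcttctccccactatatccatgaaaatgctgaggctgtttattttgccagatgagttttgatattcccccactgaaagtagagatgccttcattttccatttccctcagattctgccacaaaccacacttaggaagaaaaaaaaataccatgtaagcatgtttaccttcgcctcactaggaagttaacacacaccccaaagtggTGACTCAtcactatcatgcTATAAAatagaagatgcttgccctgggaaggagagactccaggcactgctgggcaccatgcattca
Mmp3 (chr9:7445572-7445871): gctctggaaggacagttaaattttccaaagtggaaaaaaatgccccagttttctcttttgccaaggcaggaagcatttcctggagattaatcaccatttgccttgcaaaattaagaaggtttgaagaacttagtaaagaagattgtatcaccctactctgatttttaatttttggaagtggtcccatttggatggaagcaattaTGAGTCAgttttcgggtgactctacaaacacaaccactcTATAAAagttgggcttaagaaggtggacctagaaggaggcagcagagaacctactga
Mmp10 (chr9:7502092-7502391): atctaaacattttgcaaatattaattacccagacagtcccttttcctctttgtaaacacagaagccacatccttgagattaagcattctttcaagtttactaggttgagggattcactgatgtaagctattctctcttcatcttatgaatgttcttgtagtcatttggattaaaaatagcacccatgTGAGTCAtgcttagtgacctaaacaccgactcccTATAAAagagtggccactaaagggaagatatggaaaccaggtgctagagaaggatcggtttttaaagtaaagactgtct
Timp1 (chrX:20869916-20870215): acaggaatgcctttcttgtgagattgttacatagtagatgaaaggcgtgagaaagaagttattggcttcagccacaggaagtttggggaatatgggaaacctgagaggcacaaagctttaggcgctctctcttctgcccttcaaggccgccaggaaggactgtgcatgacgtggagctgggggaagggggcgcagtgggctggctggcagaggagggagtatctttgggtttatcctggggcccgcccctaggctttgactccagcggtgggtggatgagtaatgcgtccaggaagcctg
The 3 metalloprotease genes lie on chromosome 9, and each promoter holds 1 copy of each motif. The AP-1 motif begins 35 bases before the annotated start in Mmp13, 46 in Mmp3 and 63 in Mmp10. The letters TATAAA begin 16 bases before it in Mmp13, 7 in Mmp3 and 29 in Mmp10. Whether they act as a TATA box was not tested. The Timp1 window holds no exact match to either run of letters. Near matches, such as the letters tgagtaa close to its end, were not searched, so an AP-1 site with other letters is not excluded. Of 32851 mouse promoters of this length, 7.81% held TGANTCA, 13.6% held TATAAA and 1.54% held both. A promoter was found for 28 of the 45 listed genes, and 4 of these 28 held TGANTCA (the 3 metalloproteases and Col6a1). The motifs are thus present in the Mmp10 promoter as well as in those of Mmp3 and Mmp13. No binding was measured in this study.

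Mmp14, the membrane-bound protease that activates proMMP2 and cuts collagen at the cell surface, read 7.19, 7.12 and 7.50 in controls and 7.60, 9.15 and 9.21 in neutrophilic lungs. Neutrophilic mouse 23 lay just above the controls, and the other two lay far above them. Mmp14 rose by 1.38 ± 0.41 in neutrophilic lungs (2.61-fold; limma adjusted p = 0.0479 without mouse 7 and 0.238 with it). In mixed lungs it read 8.33, 8.23 and 8.34, a difference of 1.03 (adjusted p = 0.259 without mouse 7) between groups that did not overlap. Mmp2, the gelatinase A that MMP14 activates, read 9.59, 9.46 and 9.08 in controls and 8.29, 9.55 and 9.96 in neutrophilic lungs, a difference of −0.11 between overlapping groups.

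**Figure D2:**
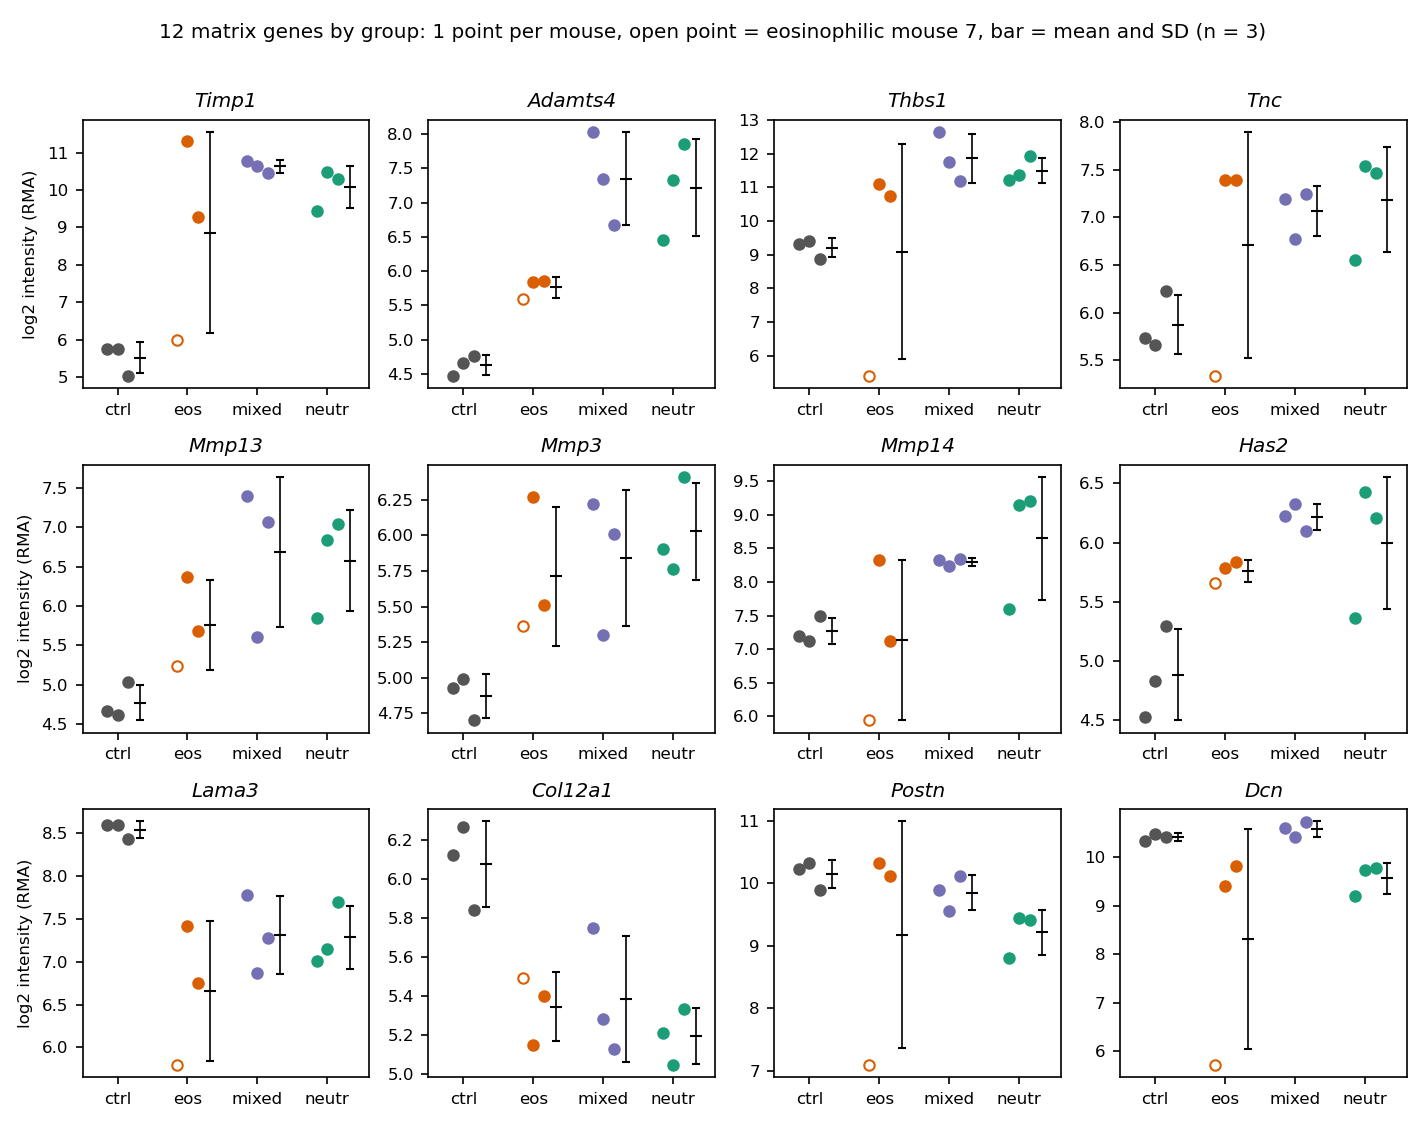
Log2 intensity of the 12 matrix genes that were called in any comparison, 1 point for each mouse, with mean and SD of each group of 3; the open point is eosinophilic mouse 7, and each panel has its own axis. Timp1, Adamts4, Thbs1 and Mmp13 lay above all controls in every mixed and neutrophilic mouse, and Lama3 and Col12a1 lay below.

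Among the matricellular proteins, Thbs1 and Tnc rose in all 3 models without mouse 7 and Postn fell in neutrophilic lungs. Thbs1, thrombospondin 1, which can release TGF-beta from its latent form, read 9.32, 9.39 and 8.88 in controls. It read 5.40, 11.11 and 10.74 in eosinophilic mice 7, 8 and 9, then 12.64, 11.74 and 11.19 in mixed and 11.22, 11.35 and 11.92 in neutrophilic lungs. Only mouse 7 lay below the controls, and the other 8 HDM mice lay above them. Without mouse 7, Thbs1 rose by 1.73 ± 0.39 in eosinophilic (limma adjusted p = 0.0463), by 2.66 ± 0.35 in mixed (6.32-fold; adjusted p = 0.000995) and by 2.30 ± 0.35 in neutrophilic lungs (4.92-fold; adjusted p = 0.00142). With mouse 7 the SE was 1.10, the eosinophilic difference was −0.12 (adjusted p = 0.944), and the adjusted p was 0.520 in mixed and 0.368 in neutrophilic lungs.

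Tnc, tenascin C, a glycoprotein of injured and inflamed tissue, read 5.74, 5.66 and 6.23 in controls. Eosinophilic mice 8 and 9 both read 7.39 and mouse 7 read 5.34, mixed lungs read 7.19, 6.77 and 7.24, and neutrophilic lungs read 6.55, 7.54 and 7.46. Without mouse 7 all HDM values lay above the controls. Tnc then rose by 1.52 ± 0.33 in eosinophilic (limma adjusted p = 0.0419), by 1.20 ± 0.30 in mixed (adjusted p = 0.0463) and by 1.31 ± 0.30 in neutrophilic lungs (adjusted p = 0.0143). With mouse 7 the adjusted p was 0.250, 0.522 and 0.218 in that order.

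Postn, periostin, a protein known for its response to type 2 cytokines in human airways, read 10.24, 10.32 and 9.89 in controls and 10.33 and 10.11 in eosinophilic mice 8 and 9. It read 9.90, 9.55 and 10.11 in mixed and 8.80, 9.44 and 9.41 in neutrophilic lungs. Only the neutrophilic group lay wholly below control. Postn fell there by 0.93 ± 0.26 (limma adjusted p = 0.0409 without mouse 7 and 0.574 with it). In eosinophilic lungs without mouse 7 the difference was 0.073, and with that array it was −0.97. Sparc, a collagen-binding protein, was not called in any comparison, with differences of −0.54 in eosinophilic lungs without mouse 7, −0.54 in mixed and −0.47 in neutrophilic lungs.

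Fibronectin, Fn1, an adhesive scaffold on which collagen is laid down, read 10.49, 10.31 and 10.34 in controls. It read 11.55 and 11.62 in eosinophilic mice 8 and 9, 11.26, 10.70 and 11.11 in mixed and 10.68, 11.29 and 11.44 in neutrophilic lungs, and 6.10 on the array of mouse 7. Apart from mouse 7, no HDM mouse fell within the controls. The differences without mouse 7 were 1.21 (limma adjusted p = 0.0645), 0.64 (adjusted p = 0.283) and 0.76 (adjusted p = 0.0908), none of them called. Elastin, Eln, the core of elastic fibres, read 8.23, 8.24 and 8.13 in controls, 7.61 and 5.68 in eosinophilic mice 8 and 9, and 7.18, 9.22 and 9.51 in neutrophilic lungs. Its spread within the models was wide, and its difference in eosinophilic lungs without mouse 7, −1.56, was not called (adjusted p = 0.241).

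Of the hyaluronan synthases, Has2 rose and Has1 was not called. These enzymes spin hyaluronan, the large sugar polymer that takes up water, at the cell surface. Has2 read 4.52, 4.83 and 5.30 in controls, 5.66, 5.79 and 5.83 in eosinophilic, 6.23, 6.32 and 6.10 in mixed and 5.37, 6.42 and 6.21 in neutrophilic lungs. All 9 HDM values lay above the controls, though the side taken by mouse 7 carries little weight on its narrow array. Without mouse 7, Has2 rose by 1.33 ± 0.30 in mixed (limma adjusted p = 0.0287) and by 1.11 ± 0.30 in neutrophilic lungs (adjusted p = 0.0324). With it the adjusted p was 0.0998 and 0.0941. Has1 differed most in eosinophilic lungs, by 1.12 without mouse 7 (adjusted p = 0.0675). Its differences in mixed and neutrophilic lungs were 0.48 and 0.58. Has1 read 4.81, 5.16 and 5.47 in controls, and every HDM value but that of mouse 7 (5.39) lay above them.

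Among the proteoglycans, decorin (Dcn), a small leucine-rich proteoglycan that binds collagen fibrils, fell in neutrophilic lungs. It read 10.33, 10.48 and 10.42 in controls, 10.59, 10.41 and 10.72 in mixed and 9.19, 9.73 and 9.77 in neutrophilic lungs. Eosinophilic mice 8 and 9 read 9.40 and 9.82, and mouse 7 read 5.72. The neutrophilic and eosinophilic values all lay below the controls and the mixed values did not. Dcn fell by 0.85 ± 0.25 in neutrophilic lungs (limma adjusted p = 0.0447 without mouse 7 and 0.669 with it), and its difference was 0.17 in mixed and −0.80 in eosinophilic lungs without mouse 7 (adjusted p = 0.179). Versican (Vcan), the large proteoglycan that binds hyaluronan, read 5.33, 5.39 and 4.92 in controls and between 5.44 and 7.57 on all HDM arrays, with differences of 1.69 (adjusted p = 0.106), 1.28 (adjusted p = 0.159) and 1.18 (adjusted p = 0.108) without mouse 7. Lum and Bgn, which also bind fibrils, overlapped with control in every model.

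Fibrillar collagens gave no call. None of the 5 was called by limma in any comparison, with or without mouse 7, and none had an unadjusted p under 0.05. Col1a1, a chain of collagen type I, read 8.61, 8.85 and 8.73 in controls, 9.03 and 8.86 in eosinophilic mice 8 and 9, 8.92, 8.95 and 8.86 in mixed and 8.43, 9.33 and 9.79 in neutrophilic lungs. The mixed values lay above control by a narrow margin and the neutrophilic ones overlapped with it. The differences were 0.21 in eosinophilic, 0.18 (95% interval −0.47 to 0.83) in mixed and 0.45 (−0.20 to 1.10) in neutrophilic lungs without mouse 7. Col3a1, the chain of collagen type III, differed by 0.43 in mixed and by 0.57 (−0.13 to 1.27) in neutrophilic lungs. Col1a2, the partner chain of Col1a1, read 7.68, 8.72 and 9.78 in neutrophilic mice 23, 24 and 25, against 8.92, 8.95 and 8.47 in controls, so these mice lay on both sides of control. The interval for Col1a1 in neutrophilic lungs includes both 0 and a rise of up to 1.10.

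In the basement membrane group the chains differed. Lama3, the laminin alpha 3 chain of epithelial basement membrane, read 8.60, 8.59 and 8.43 in controls, 5.79, 7.42 and 6.75 in eosinophilic, 7.78, 6.87 and 7.27 in mixed and 7.01, 7.15 and 7.70 in neutrophilic lungs. All 9 HDM values lay below all controls, though here too the side taken by mouse 7 carries little weight. Without mouse 7, Lama3 fell by 1.45 ± 0.33 in eosinophilic (limma adjusted p = 0.0499), by 1.23 ± 0.30 in mixed (adjusted p = 0.0400) and by 1.25 ± 0.30 in neutrophilic lungs (adjusted p = 0.0180). With mouse 7 the adjusted p was 0.0572, 0.275 and 0.131. Markers of alveolar type 1 cells, a lung epithelium that rests on basement membrane, were also below control: the mean of 7 such markers per array ranged from 9.87 to 10.28 in controls, 8.65 to 9.54 in eosinophilic lungs without mouse 7, 9.09 to 9.58 in mixed and 8.68 to 9.20 in neutrophilic lungs. Of these 7 markers, 1, 2 and 4 were called lower without mouse 7, while 1 lay above the control mean in mixed and in neutrophilic lungs. In that fit their median log2 difference in eosinophilic, mixed and neutrophilic lungs was −0.96, −1.12 and −1.07. That of 6 alveolar type 2 markers was −0.54, −0.005 and −0.46, and that of 7 airway epithelium markers −0.005, 0.22 and 0.08. Limma called 0 type 2 markers (1, 1 and 0 had an unadjusted p under 0.05), and called 1, 0 and 0 airway markers lower. The part of these markers in the results for Lama3 and Col4a3 was not tested. Lamb3, the partner of Lama3 in the same laminin trimer, overlapped with control in each model.

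No type IV collagen chain was called, but Col4a3 lay below control in every HDM mouse. Col4a3, a chain of the network found in alveolar and glomerular membranes, read 7.29, 7.07 and 7.08 in controls, 6.46, 6.48 and 6.67 in eosinophilic, 6.65, 6.52 and 6.61 in mixed and 6.74, 6.10 and 6.86 in neutrophilic lungs. Each model lay wholly below control, with differences of −0.61, −0.55 and −0.58 with all 12 arrays that were not called. Col4a4, its partner, differed by −0.93, −0.49 and −0.40 with all 12 arrays. Its eosinophilic mean was 5.39 with mouse 7 and 5.58 without it, against 6.33 in controls. Col4a1, a chain of the common network, read 8.04, 8.09 and 7.86 in controls, and outside mouse 7 it ran from 7.69 to 9.12, with models overlapping control. The difference between chains was not tested.

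Of the other collagens, Col12a1 was the single one called. Collagen type XII coats the surface of fibrils. Col12a1 read 6.12, 6.27 and 5.84 in controls, 5.49, 5.15 and 5.40 in eosinophilic, 5.75, 5.28 and 5.13 in mixed and 5.21, 5.04 and 5.33 in neutrophilic lungs, so that every HDM mouse lay below every control. It fell by 0.88 ± 0.25 in neutrophilic lungs (limma adjusted p = 0.0395 without mouse 7 and 0.112 with it), with differences of −0.69 in mixed and −0.80 in eosinophilic lungs without mouse 7. Col14a1, its relative on fibril surfaces, was likewise below every control in each model, with differences of −0.34 in mixed and −0.82 in neutrophilic lungs that were not called. Over the 17 collagens in the list the median difference was 0.11 in eosinophilic lungs without mouse 7, 0.00 in mixed and 0.22 in neutrophilic lungs.

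Lox, which cross-links collagen and elastin, read 7.58, 7.00 and 7.01 in controls and 9.33, 7.89 and 8.65 in mixed lungs. These groups did not overlap, and the difference of 1.43 was not called (limma adjusted p = 0.0566 without mouse 7 and 0.652 with it). In neutrophilic lungs it was 0.99 (adjusted p = 0.118 without mouse 7). Loxl1, its relative in elastic fibres, differed by 0.32 in mixed and by 0.34 in neutrophilic lungs.

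**Figure D3:**
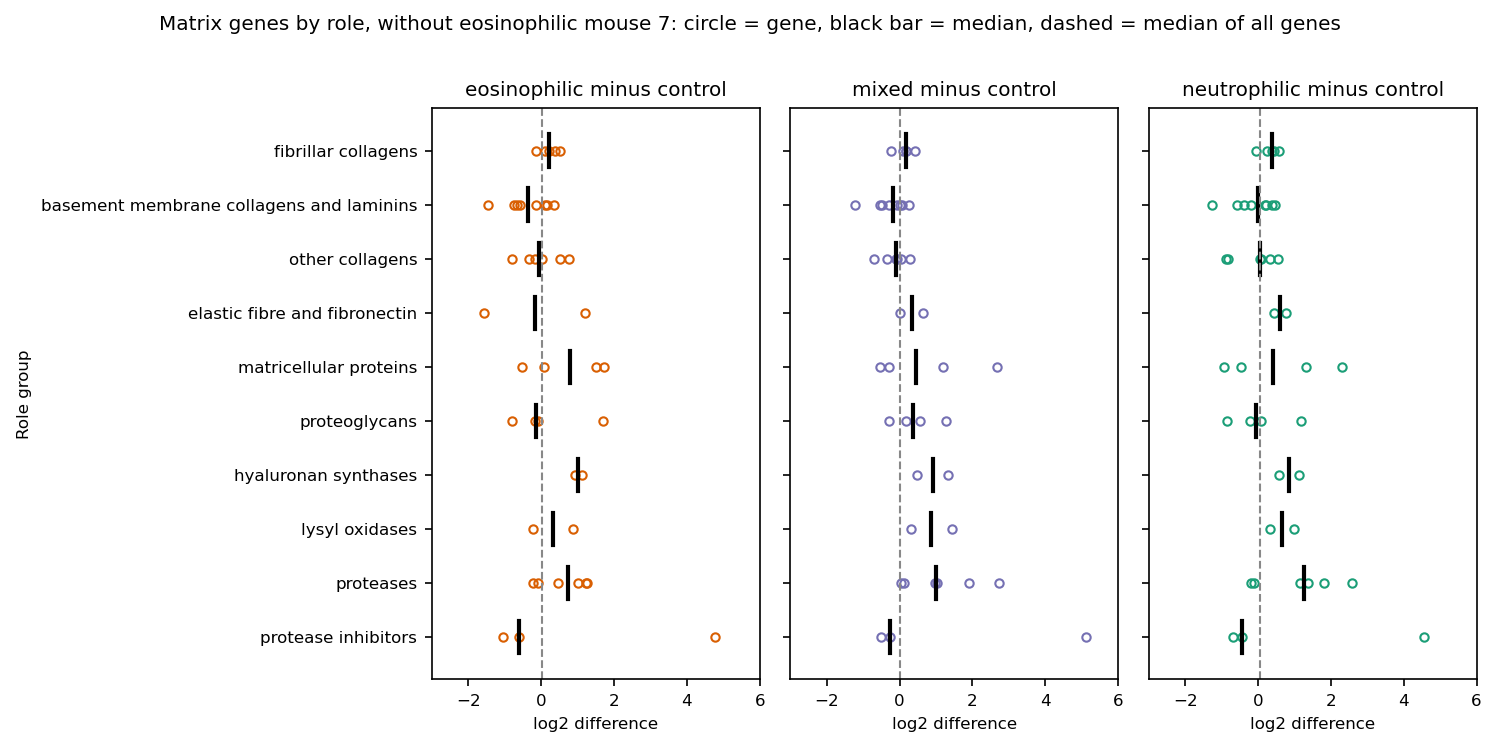
Log2 difference from control for each of the 42 matrix genes, by role group, in the fit without eosinophilic mouse 7; circles are genes, black bars group medians and dashed lines the median of all 19937 genes. In mixed and neutrophilic lungs proteases had medians of 1.0 and 1.27, while fibrillar collagens had medians of 0.18 and 0.39, and Timp1 lay apart from the other inhibitors.

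By role group, without mouse 7, the medians in eosinophilic, mixed and neutrophilic lungs were 0.74, 1.0 and 1.27 for proteases and 1.02, 0.90 and 0.85 for hyaluronan synthases. They were 0.21, 0.18 and 0.39 for fibrillar collagens and −0.35, −0.17 and 0.00 for the basement membrane group. The matricellular median, 0.80, 0.45 and 0.42, lies between called rises of Tnc and Thbs1 and lower values of Postn and Sparc. These medians describe groups of 2 to 8 genes and were not tested against each other.

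**Figure D4:**
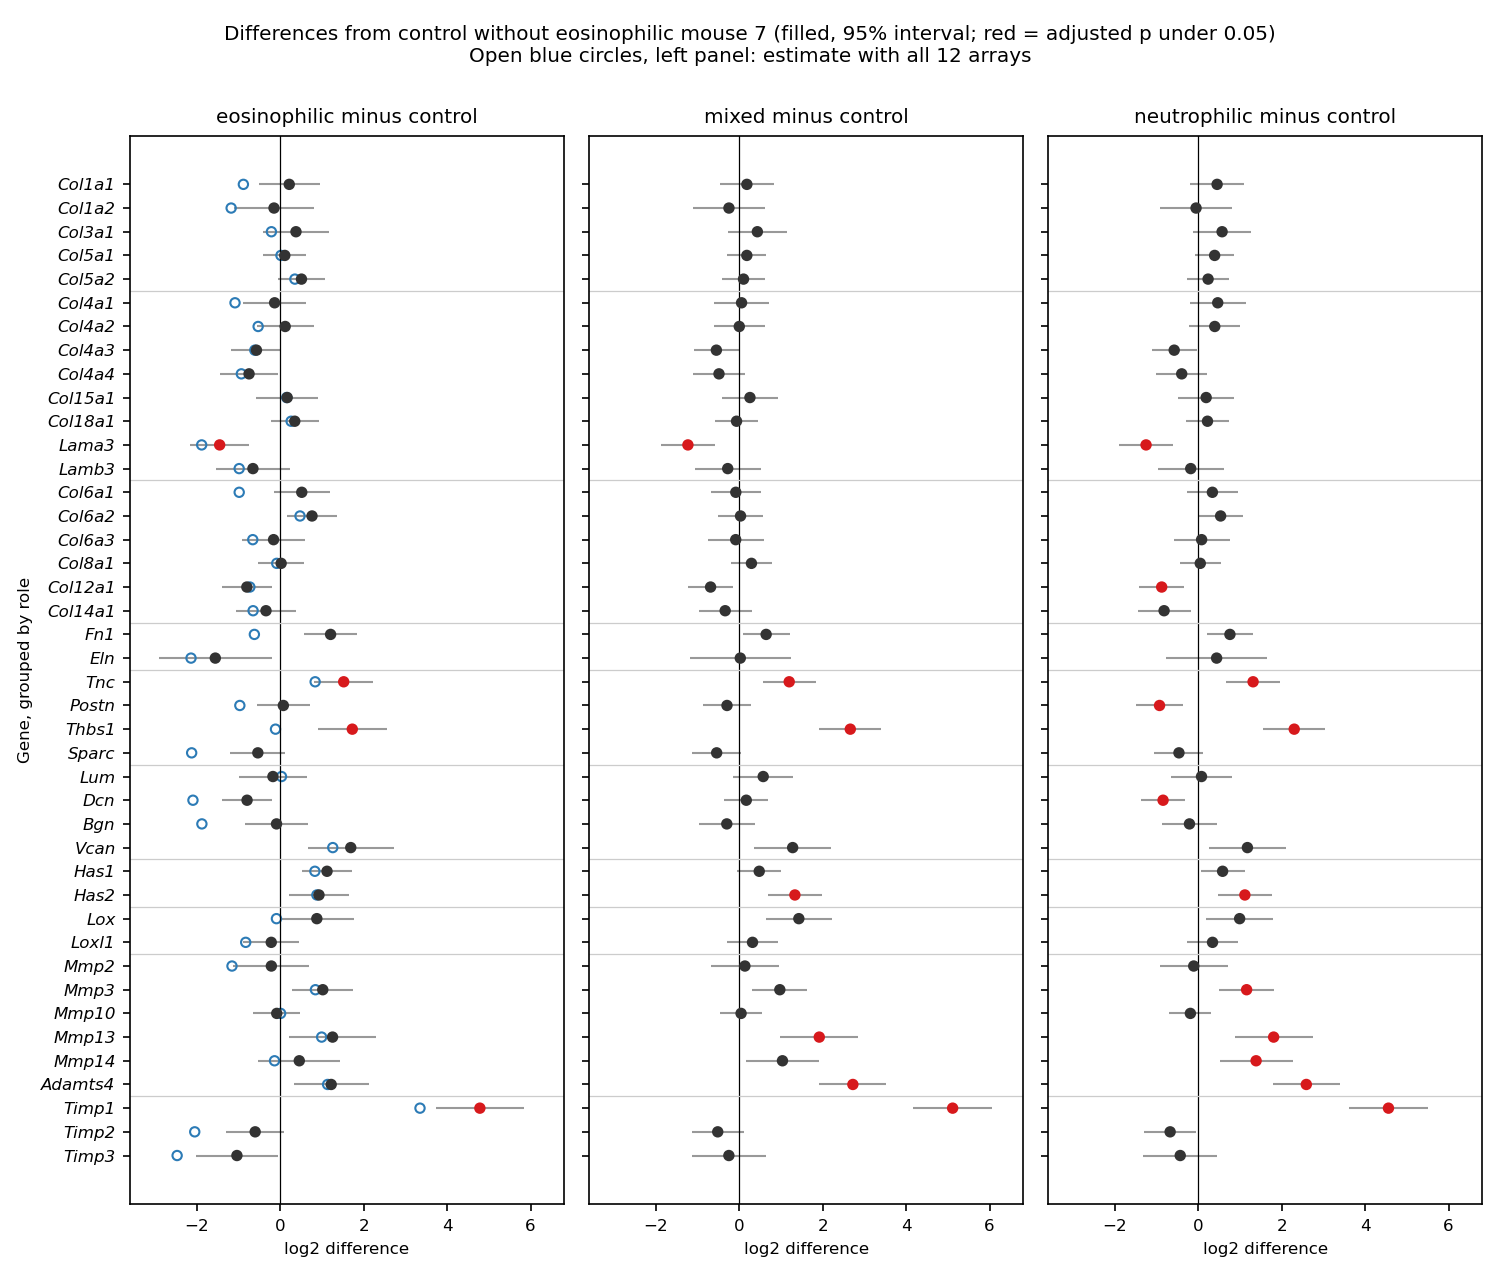
Log2 difference from control with its 95% interval for each matrix gene, in the fit without eosinophilic mouse 7; red marks an adjusted p under 0.05, and open blue circles give the eosinophilic estimate with all 12 arrays. The blue circles of Thbs1, Fn1, Sparc, Dcn, Bgn, Timp2 and Timp3 lie far to the left of the filled ones.

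Between the models, no matrix gene was called. The shares of all genes in this paragraph are shares called at the adjusted p, and none was computed at an unadjusted p. In mixed against eosinophilic lungs limma called 0 of the 42 with all arrays and without mouse 7 (7 and 6 had an unadjusted p under 0.05), beside 0.00502% and 0.0502% of all genes. In neutrophilic against eosinophilic lungs it called 0 (7 and 3 had an unadjusted p under 0.05), beside 0.115% and 0.191% of all genes. In neutrophilic against mixed lungs it called 0 (0 and 2 had an unadjusted p under 0.05), beside 0% of all genes in both fits. Adamts4 was 1.59 higher in mixed than in eosinophilic lungs, and 1.50 (95% interval 0.60 to 2.40) without mouse 7 (limma adjusted p = 0.423). Dcn was 1.01 lower in neutrophilic than in mixed lungs, groups that did not overlap (log2 difference −1.01, interval −1.54 to −0.49 and adjusted p = 0.429 without mouse 7). For Timp1 the neutrophilic minus mixed difference was −0.56, with an interval from −1.51 to 0.39 without mouse 7. The 10-fold higher dose thus left no called difference in these genes, and intervals of this width do not show that the models act alike.

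Other matrix genes were taken from lists beside the 42, and their counts can be read against the shares of all genes called in each comparison, given above. Of 24 further collagens limma called 0 in each model with and without mouse 7, and between 1 and 4 of them had an unadjusted p under 0.05 there. Of 21 measured genes of collagen synthesis and processing, none was called higher (at most 1 was higher at an unadjusted p under 0.05), and 1, 0 and 2 were called lower by limma in eosinophilic, mixed and neutrophilic lungs (2, 3 and 3 without mouse 7). In mixed lungs, with all arrays, 3 of these 21 had an unadjusted p under 0.05. Plod2, the lysyl hydroxylase that prepares collagen for cross-links, fell by 1.53 ± 0.27 in eosinophilic lungs (limma adjusted p = 0.0462), and by 1.59 ± 0.29 without mouse 7 (adjusted p = 0.0197). It fell by 1.78 ± 0.27 in neutrophilic lungs (adjusted p = 0.00936), and its difference in mixed lungs was −1.36 (adjusted p = 0.0513 with mouse 7 and 0.0110 without it). Colgalt2, which adds sugar to collagen, fell by 1.49 in neutrophilic lungs (adjusted p = 0.0267).

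Other proteases and their regulators were called in both directions. Of 24 other metalloproteases and ADAMTS genes, 3 were called higher and 1 lower in neutrophilic lungs with all arrays, and 4 higher and 5 lower without mouse 7, where 2.24% and 7.23% of all genes were called. In mixed lungs limma called 0 with all arrays (9 had an unadjusted p under 0.05), and 3 higher and 2 lower without mouse 7, where 1.41% and 1.57% of all genes were called. In eosinophilic lungs 1 was called lower with all arrays, and 1 was called higher and 2 lower without mouse 7, where 0.451% and 0.883% of all genes were called.

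In neutrophilic lungs Mmp12, the macrophage elastase, rose by 3.25 ± 0.73 (limma adjusted p = 0.0424), Mmp8, the neutrophil collagenase, by 2.70 ± 0.61 (adjusted p = 0.0424), and Mmp25, a membrane protease of leukocytes, by 1.63 ± 0.34 (adjusted p = 0.0333). Without mouse 7, Mmp12 also rose by 3.18 ± 0.59 in eosinophilic (adjusted p = 0.0217) and by 3.64 ± 0.53 in mixed lungs (adjusted p = 0.00207). Adamts5, a relative of Adamts4 with the same main substrate, fell in neutrophilic lungs by 1.36 ± 0.31 (adjusted p = 0.0465), the opposite direction to Adamts4. The difference between these relatives was not tested. Adamts1 fell in eosinophilic lungs by 1.65 ± 0.29 (adjusted p = 0.0462), and by 1.48 ± 0.29 without mouse 7 (adjusted p = 0.0306). Mmp9, gelatinase B, was not called, with differences of 1.17 in mixed and 1.20 in neutrophilic lungs.

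Of 14 measured genes of the cathepsin and plasminogen system, 1 was called lower in neutrophilic lungs with all arrays, and 4 were called higher and 1 lower without mouse 7. In eosinophilic and mixed lungs limma called 0 with all arrays (4 and 5 had an unadjusted p under 0.05), and 1 and 2 were called higher without mouse 7. The one that fell was Reck, a membrane-anchored inhibitor of metalloproteases, by 2.16 ± 0.49 in neutrophilic lungs (limma adjusted p = 0.0434). Ctsk, cathepsin K, which degrades collagen and elastin, rose without mouse 7 by 2.47 ± 0.42 in eosinophilic (adjusted p = 0.0149), by 2.20 ± 0.37 in mixed (adjusted p = 0.00627) and by 2.10 ± 0.37 in neutrophilic lungs (adjusted p = 0.00393). With mouse 7 its adjusted p was 0.235, 0.334 and 0.188.

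Of 17 other proteoglycan and hyaluronan genes, 1 was called higher in mixed lungs (2 without mouse 7), and 1 was called higher and 2 lower in neutrophilic lungs (2 and 2 without mouse 7). In eosinophilic lungs limma called 0 in both fits (8 and 5 had an unadjusted p under 0.05). Tnfaip6, which ties proteins to hyaluronan in inflamed tissue, rose by 2.34 ± 0.36 in mixed (limma adjusted p = 0.0160) and by 2.10 ± 0.36 in neutrophilic lungs (adjusted p = 0.0139). Ogn and Aspn, small leucine-rich proteoglycans like decorin, fell in neutrophilic lungs by 2.54 (adjusted p = 0.0456) and 1.65 (adjusted p = 0.0462).

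Of 20 genes of the TGF-beta and activin axis, 1, 2 and 1 were called higher in eosinophilic, mixed and neutrophilic lungs with all arrays, and limma called none lower (10, 2 and 3 were lower at an unadjusted p under 0.05). Without mouse 7, 2, 3 and 2 were called higher and 1, 2 and 1 lower. Inhba, the subunit of activin A, rose by 3.13 ± 0.58 in mixed lungs (limma adjusted p = 0.0354). Its difference in eosinophilic lungs was 2.90 (adjusted p = 0.0509), or 2.70 without mouse 7 (adjusted p = 0.0452), and that in neutrophilic lungs was 2.36 (adjusted p = 0.0552 with mouse 7 and 0.0148 without it). Fst, follistatin, which binds activin, rose by 1.35 ± 0.26 in eosinophilic lungs (adjusted p = 0.0479), by 1.41 ± 0.28 there without mouse 7 (adjusted p = 0.0287), and by 1.13 ± 0.26 in neutrophilic lungs (adjusted p = 0.0485). Itgb8, part of an integrin that activates TGF-beta, rose by 1.78 ± 0.34 in mixed lungs (adjusted p = 0.0451). Without mouse 7, Tgfb2, a TGF-beta ligand, fell in eosinophilic lungs by 1.31 ± 0.28 (limma adjusted p = 0.0375). Smad6, one of the inhibitory SMAD proteins, fell in that fit by 1.56 in mixed (adjusted p = 0.00971) and by 1.55 in neutrophilic lungs (adjusted p = 0.00493). Tgfb3, another ligand, fell by 1.36 in mixed lungs in that fit (adjusted p = 0.00995). Tgfb1 was not called, with differences of 0.24 in mixed and 0.78 in neutrophilic lungs.

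Markers of several other cell types, beside the alveolar type 1 markers given with Lama3, also differed between groups. The mean of 10 fibroblast markers per array ranged from 7.43 to 7.74 in controls, 6.48 to 7.25 in eosinophilic lungs without mouse 7, 6.93 to 7.15 in mixed and 6.64 to 6.95 in neutrophilic lungs, and of these 10 genes 1, 1 and 3 were called lower without mouse 7. The mean of 6 macrophage markers ranged from 6.82 to 7.46 in controls and from 7.94 to 9.09 in the models without mouse 7, with 2, 1 and 2 called higher. The mean of 7 neutrophil markers ranged from 5.70 to 6.70 in controls, 7.14 to 7.90 in eosinophilic lungs without mouse 7, 8.19 to 9.10 in mixed and 7.89 to 9.38 in neutrophilic lungs, with 0, 6 and 6 called higher by limma (in the eosinophilic comparison 3 of the 7 had an unadjusted p under 0.05). The mean of 7 blood endothelial markers ranged from 10.34 to 10.63 in controls and from 8.98 to 9.82 in the models without mouse 7. Of these 7 genes, 1, 2 and 3 were called lower in that fit. Over all genes in that fit, 0.451%, 1.41% and 2.24% were called higher in eosinophilic, mixed and neutrophilic lungs. The shares called lower were 0.883%, 1.57% and 7.23% in that order. The part of the marker shifts in the results for matrix genes was not tested.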

How the data were processed

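The deposited table holds log2 intensities, 1 per probe set, which the authors made, per the submitters' processing notes, with Affymetrix Expression Console and RMA, versions of both not given in the sources used here. RMA corrects background, applies quantile normalization and summarises probes, which can compress differences of dim probes and draw a poor array towards the others. The base was taken as 2 from the range of the values. Of 34760 probe sets, 21640 had a single symbol in the platform annotation, and each of 19937 genes was represented by its probe set of highest mean over 12 arrays.

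Tests used limma 3.58.1 in R 4.3.3: a mean for each of 4 groups, 6 contrasts, moderated variances (eBayes), two-sided p values adjusted by Benjamini-Hochberg over the 19937 genes, threshold 0.05. The test was tried on simulated data whose spread was estimated without eosinophilic mouse 7, so that trial does not cover an outlying array. Each comparison was repeated without eosinophilic mouse 7, where the eosinophilic group has 2 arrays. Other alternatives were a filter on dim genes, 2 rescalings, other variance settings, fits of 2 groups and arrays left out. The labels call the samples separate mice, and the number of arrays limits precision. Motifs were searched in RefSeq promoters, on both strands.

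The matrix genes, the lists of other genes and the tests were chosen with earlier results of these data known. Values for each array are given for genes called in any comparison or with the highest or lowest difference of their role group, and for some others of interest. From each other list up to 4 genes by smallest p could be named, and any gene of the metalloprotease and TGF-beta lists.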

Additional observations from a re-analysis of the deposited data

Results flagged for a closer look

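Dcn, decorin, was picked out because its models lay on opposite sides of the control mean of 10.41. The mixed difference was 0.17, while those of the eosinophilic and neutrophilic lungs were −2.09 and −0.85 with all 12 arrays. Mixed mouse 16, at 10.41, lay within the controls, so the opposite side rests on a small difference. The contrast of mixed with eosinophilic lungs was 2.26 (limma adjusted p = 0.295), and without eosinophilic mouse 7 it was 0.96 (adjusted p = 0.462). That of neutrophilic with mixed lungs was −1.01 (adjusted p = 0.429 without mouse 7). Neither passed the threshold.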

How the results depend on the processing

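Counts of called matrix genes depended on which arrays were kept, and so did calls over all genes. In neutrophilic against control, 0.662% of all genes were called higher and 1.45% lower with all arrays. Without eosinophilic mouse 7 these shares were 2.24% and 7.23%. Shares for fits with other arrays or settings are not given here, so the counts cannot be read as particular to the matrix genes. Leaving out 1 array at a time gave 0 to 9 called genes in eosinophilic against control (9 without eosinophilic mouse 8, which leaves mouse 7 in, and 4 without mouse 7). It gave 0 to 7 in mixed against control (0 without control 1, 2 or 3 or mixed mouse 15 or 16, 1 without mixed mouse 17, 7 without eosinophilic mouse 7). It gave 0 to 12 in neutrophilic against control (0 without control 1 or 2 or neutrophilic mouse 25, 1 without control 3 or neutrophilic mouse 24, 12 without eosinophilic mouse 7). Mixed against eosinophilic gave 0 to 13 and neutrophilic against eosinophilic 0 to 8, both highest without eosinophilic mouse 8, and neutrophilic against mixed gave 0 to 0.

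With eosinophilic mice 7 and 9 and neutrophilic mouse 23 left out together, 11 genes were called in mixed and 17 in neutrophilic against control. The eosinophilic group then holds 1 array, so counts for it are left out. For this fit and those that follow, the shares of all genes called are not given either. These counts too cannot be read as particular to the matrix genes. Fits of only the groups compared called 11 in mixed and 8 in neutrophilic lungs, and eBayes with trend and robust settings called 4 and 5. Requiring log2 of at least 5 on 3 arrays, which kept 13370 genes and 41 of the 42, called 1 gene in eosinophilic lungs and moved the median of all genes there to −0.46.

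Of the 12 genes called in any comparison, Postn, Thbs1 and Mmp14 changed sign in eosinophilic against control. Postn went from −0.97 to 0.11 with quantile normalization, 0.18 with the 3 mice left out and 0.073 without mouse 7. Thbs1 went from −0.12 to 0.076, 1.91 and 1.73 in that order, and Mmp14 from −0.14 to 0.43, 1.06 and 0.45. With 1 array left out at a time, Postn ran from −1.55 to 0.073, Thbs1 from −1.13 to 1.73 and Mmp14 from −0.74 to 0.45, each lowest without mouse 8 and highest without mouse 7. The cause was not tested. No sign of these 12 changed in mixed or neutrophilic against control under any alternative run. No paired analysis was possible because the groups share no replicate number.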
